A study of Mus musculus with 5 samples.

Results

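The erythroid progenitors described here were 655 of the 11581 Lin-kit+ cells of mouse bone marrow in this data set, which holds 12893 cells in all. They were chosen by their transcripts. A cell was taken when at least 1 unique molecular identifier (UMI, the tag that marks 1 captured RNA molecule) was found in 3 or more of the 6 erythroid markers Klf1, Car1, Ermap, Aqp1, Epor and Blvrb, and in fewer than 3 of the 7 megakaryocyte markers Pf4, Gp9, Gp5, Ppbp, Itga2b, Treml1 and Rab27b. The rule gave 78 of 1339 cells in Lin-kit+ library a, 214 of 4095 in library b and 363 of 6147 in library c. Since these 13 genes chose the cells, their levels are described without a test. Each set of cells was compared within each library with all other Lin-kit+ cells (1261, 3881 and 5784 cells), and with the 158 megakaryocyte progenitors (24, 36 and 98 cells), which had a UMI in 3 or more megakaryocyte markers and in fewer than 3 erythroid markers. A further 4 cells passed both marker counts and were left among the other cells.

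The cells came from untreated 20-week-old mice of the strain Fgd5CreERT2/+Rosa26Tomato/+, in which 1 allele of Fgd5, a gene of hematopoietic stem cells, carries ZsGreen and the tamoxifen-inducible recombinase CreERT2, and 1 Rosa26 allele carries a Tomato reporter behind a stop cassette that Cre removes. All groups share this genotype, age and tissue. Lineage-negative CD45.2+ c-kit+ cells (Lin-kit+) made up 3 libraries, and a pair of smaller libraries held ZsGreen+ cells (Fgd5+, 793 cells) and ZsGreen+ cells with a further stem cell gate (HSC-Fgd5+, 519 cells). The table of counts names libraries by a barcode suffix only, and suffixes were matched to populations through these cell numbers, without a link from library a, b or c to a single sample label. The number of mice is not given in the sources used here, and the 3 libraries may be loadings of 1 cell suspension. SDs thus measure the spread between libraries. P-values rest on the spread of the within-library difference between cell sets, estimated with information shared across genes. Either spread may be technical.

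The Lin-kit+ libraries held 10000606, 18683092 and 36080242 UMIs. Of these, 563785, 1003704 and 2377236 lay in erythroid progenitors. The median erythroid progenitor had 5620.5, 3971 and 5284 UMIs in libraries a, b and c, below the 6609, 4446 and 5513 of the other cells, and 1778, 1373.5 and 1667 detected genes. With each cell thinned to 2000 UMIs, members had a median of 871, 850 and 868 genes and other cells 867.5, 870 and 874. Levels below are the UMIs of a gene over all UMIs of a cell set, scaled to 1000000 (CPM), and 3 values in a row are those of libraries a, b and c. Of the barcodes, 46 occurred in more than 1 Lin-kit+ library, and 2 members carried such a barcode.

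Erythroid progenitors descend from bipotent megakaryocyte-erythroid precursors and pass through burst-forming and colony-forming stages before they become erythroblasts. Gata1 with its partners Tal1, Lmo2 and Ldb1, and the factor Klf1, drive this course, while Gata2 acts earlier and Spi1 (PU.1) drives myeloid fates. Erythropoietin, bound by the receptor Epor, keeps colony-forming cells alive, and the cells then build up the enzymes of heme synthesis, iron uptake, globin and the red cell membrane skeleton.

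All 6 markers of the rule were many times higher in members than in other cells, which the rule fixes. Car1, a carbonic anhydrase, was at 3434, 3525 and 4124 CPM in members and 9.33, 33.3 and 27.9 CPM in other cells. Klf1 was at 316, 274 and 129 CPM against 3.5, 4.53 and 2.08 CPM, so its level in library c was below those of a and b in both sets of cells. Epor, the scarcest of the 6, was at 42.6, 63.8 and 66 CPM against 0.424, 0.679 and 0.593 CPM. At least 1 Epor UMI was found in 24.4%, 25.2% and 32.5% of members and in 0.317%, 0.283% and 0.328% of other cells. After thinning to 2000 UMIs the shares were 3.90%, 14.7% and 10.2% of members and 0.0808%, 0.200% and 0.215% of other cells. Ermap, an erythroid membrane protein, was at 106, 104 and 112 CPM, Aqp1, a water channel, at 415, 381 and 384 CPM, and Blvrb, which reduces biliverdin, at 582, 677 and 664 CPM. Among megakaryocyte markers, Pf4 was at 3.55, 36.9 and 6.31 CPM in members, 125, 86.3 and 110.3 CPM in other cells and 7163, 7263 and 5998 CPM in megakaryocyte progenitors.

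**Figure D1:**
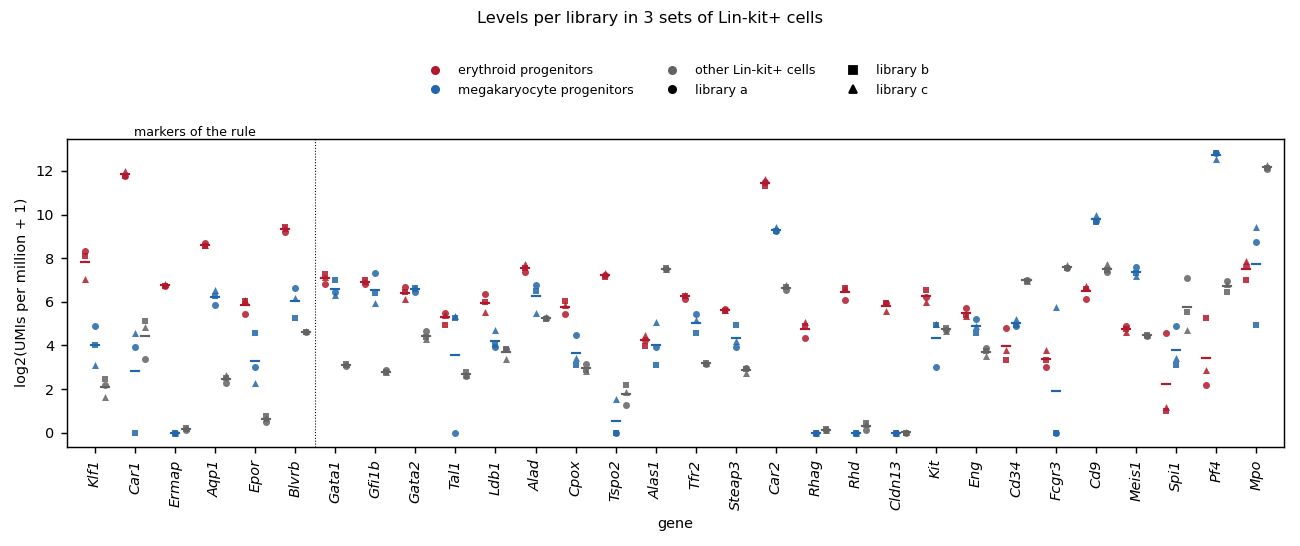
Levels of named genes in erythroid progenitors (red), megakaryocyte progenitors (blue) and all other Lin-kit+ cells (grey), as log2(CPM + 1). Each symbol is 1 library and each bar the mean of 3 libraries. Genes to the left of the dotted line, and Pf4, chose the cells. Gata1, Gfi1b, Tspo2, Car2, Rhd and Cldn13 stood above other Lin-kit+ cells in every library.

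For Car2, cells just inside and just outside the rule differed in degree. The members with exactly 3 erythroid markers (23, 94 and 136 cells) had Car2 at 1343, 1242 and 1660 CPM, and the excluded cells with exactly 2 (26, 118 and 152 cells) had 519, 847 and 850 CPM. Gata1 was at 95.9, 152 and 122 CPM with 3 markers and at 146, 117 and 110 CPM with 2, so Gata1 did not separate the cells on either side of the limit. Cells with 2 markers were also shallower, with a median of 4104, 2211 and 2826.5 UMIs against 4505, 2689.5 and 3235. Cd34 stood at 166, 39.1 and 68.8 CPM with 2 markers and at 9.59, 16.5 and 16.1 CPM with 3. The neutrophil gene Mpo was at 859, 284 and 1113 CPM with 2 markers and at 28.8, 344 and 405 CPM with 3. Elane, another neutrophil gene, was at 260, 349 and 1408 CPM against 38.4, 462 and 1251 CPM. Both were thus higher with 2 markers in libraries a and c and lower in b. Of the members, 23, 94 and 136 held 3 markers, 25, 67 and 116 held 4, 20, 37 and 71 held 5, and 10, 16 and 40 held all 6.

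Members made up 5.83% (95% Wilson interval 4.69 to 7.21), 5.23% (4.59 to 5.95) and 5.91% (5.34 to 6.52) of the Lin-kit+ libraries, a mean of 5.65% ± 0.371 (SD, n = 3 libraries). The intervals cover counting error only and overlapped in every pair. The share rests on the limit and on depth, since it was 3.58% with 4 markers needed, 8.08% with 2, and 3.64% with 3 markers after thinning. In the Fgd5+ library 1 of 793 cells (0.126%, 0.0223 to 0.711) and in the HSC-Fgd5+ library 2 of 519 cells (0.385%, 0.106 to 1.39) met the rule.

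**Figure D2:**
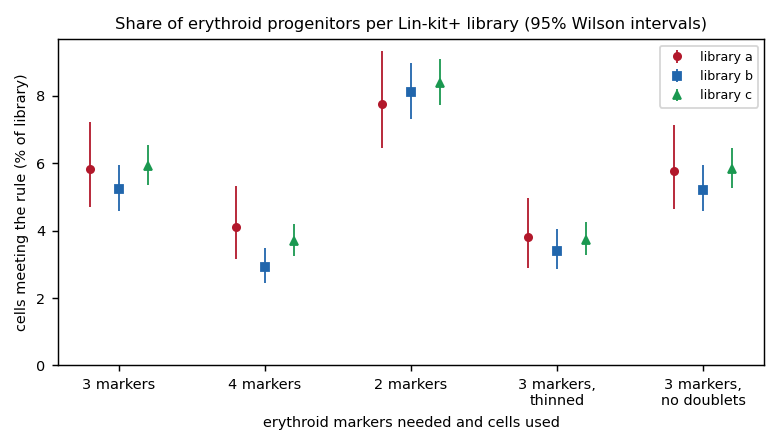
Share of cells that met the rule in each Lin-kit+ library with 3, 4 or 2 erythroid markers needed, after thinning and without doublet calls. Points are libraries and bars 95% Wilson intervals for counting error. With 3 markers the libraries lay between 5.23% and 5.91%.

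Promoters of some marker genes are shown because the rule and the largest differences rest on these genes, and because Gata1 was among the regulators that stood higher in members. Windows of 300 bases (250 before to 50 after the transcription start) come from RefSeq on build GRCm38.p6, and 5 of the 6 markers have at least 1. The GATA motif was searched as AGATAA or as AGATAG, and likewise as TGATAA or as TGATAG, on both strands. It was found for 4 of the 5 markers, for 8 of 13 genes of the red cell membrane list, for 6 of 16 erythroid regulators and for 3 of 11 heme synthesis genes, against 33.0% of all 27025 genes with a window (29.8% of all windows). A gene with several windows was counted if any of them held a match. Blvrb, 1 of the 4 markers, matched in 1 window, 196 bases before the start, and not in another, and is not shown. Capitals mark the motif on either strand.
Klf1, chr8:84901732-84902031, + strand: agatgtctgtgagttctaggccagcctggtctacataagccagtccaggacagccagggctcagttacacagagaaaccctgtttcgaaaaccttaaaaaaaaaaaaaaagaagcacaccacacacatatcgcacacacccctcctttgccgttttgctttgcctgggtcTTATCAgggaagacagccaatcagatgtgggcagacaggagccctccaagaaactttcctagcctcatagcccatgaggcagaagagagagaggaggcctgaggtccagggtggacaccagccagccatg
Ermap, chr4:119189946-119190245, - strand: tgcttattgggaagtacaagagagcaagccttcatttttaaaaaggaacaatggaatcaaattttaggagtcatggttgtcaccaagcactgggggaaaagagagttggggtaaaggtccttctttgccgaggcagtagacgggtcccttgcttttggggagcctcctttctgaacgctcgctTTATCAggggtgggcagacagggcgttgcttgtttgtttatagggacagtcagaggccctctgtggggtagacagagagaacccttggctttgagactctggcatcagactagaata
Epor, chr9:21963527-21963826, - strand: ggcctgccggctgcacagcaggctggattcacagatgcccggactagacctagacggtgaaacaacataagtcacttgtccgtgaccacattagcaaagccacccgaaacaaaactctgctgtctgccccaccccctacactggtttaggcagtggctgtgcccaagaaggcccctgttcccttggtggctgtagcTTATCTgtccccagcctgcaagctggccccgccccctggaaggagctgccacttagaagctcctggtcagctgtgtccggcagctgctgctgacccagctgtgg
Rhag, chr17:40810899-40811198, + strand: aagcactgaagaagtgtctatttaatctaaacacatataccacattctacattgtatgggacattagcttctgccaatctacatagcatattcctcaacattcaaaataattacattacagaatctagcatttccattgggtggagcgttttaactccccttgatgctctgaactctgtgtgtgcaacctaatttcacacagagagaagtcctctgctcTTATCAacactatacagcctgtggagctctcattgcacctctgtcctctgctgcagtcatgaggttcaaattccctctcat
The match began 80 bases before the start in Klf1, 67 in Ermap, 54 in Epor and 31 in Rhag, a Rh-associated membrane protein described below. The window of Aqp1 and that of Gata1 itself hold no match. A match is a run of letters and does not show that a factor binds.

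For all genes other than the 13 of the rule, UMIs were summed per library and cell set and tested with edgeR's quasi-likelihood test, with the library as a block. P-values were adjusted by the Benjamini-Hochberg method over all genes tested, and a gene is called here when the adjusted p was under 0.05 and the fold at least 2. Against other Lin-kit+ cells 877 of 10249 genes were called higher in members (8.56%) and 1576 lower (15.4%), and these shares are the background for the counts below. Genes that the same cells transcribe along with the markers were bound to differ, so a call is not independent evidence for the cell type. With the library as a block, a call weighs a difference against the variation of such differences between libraries. That variation is estimated largely across genes, so a p-value or SE does not measure a gene's own spread between libraries alone. Spread in level that both cell sets of a library share is left out. Fold changes are given on the log2 scale with their SE. The median over all genes was 0.03, and with library totals in place of TMM scaling 0.16.

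Of 20 erythroid regulators, 19 were tested, 12 were called higher and 1 lower, with a median log2 fold change of 1.26. Gata1, the master erythroid factor, was at 112, 155 and 138 CPM in members and 7.21, 7.92 and 7.86 CPM in other cells. The groups lay far apart, with a log2 fold change of 4.01 ± 0.12 (edgeR adjusted p = 6.23e-25). Gfi1b, a repressor that red cell and platelet formation need, was at 112, 129 and 122 CPM against 6.25, 5.77 and 5.79 CPM (4.23 ± 0.13). The Gata1 partners differed in size of change. Tal1 stood at 44.3, 29.9 and 41.2 CPM against 4.98, 5.83 and 5.28 CPM (2.69 ± 0.18). Ldb1 stood at 81.6, 61.8 and 45.4 CPM against 13.4, 13.4 and 9.44 CPM (2.19 ± 0.15). Lmo2 stood at 229, 119.6 and 78.7 CPM against 88.2, 51 and 38.1 CPM (1.05 ± 0.09), so that libraries differed as much as cell sets and member and other levels overlapped across libraries, though not within one. Zfpm1 (FOG1), which binds Gata1, was called higher at low levels, 10.6, 8.97 and 5.05 CPM against 1.17, 0.509 and 0.208 CPM (3.82 ± 0.45).

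Gata2 was called higher as well, at 101, 86.7 and 69 CPM against 24.3, 19.9 and 18.7 CPM (1.85 ± 0.12). Bcl11a, known for silencing fetal globin, was at 193, 162 and 159 CPM against 45.8, 47.7 and 39.7 CPM (1.80 ± 0.09). Spi1 was the 1 regulator called lower, at 23.1, 0.996 and 1.26 CPM against 134, 44.6 and 25.3 CPM (-3.57 ± 0.25), and its level in library a stood above b and c in both sets. A further 3 regulators were lower at an adjusted p under 0.05 but by less than 2-fold, among them Runx1 (-0.99). Cited4 had too few UMIs to be tested.

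**Figure D3:**
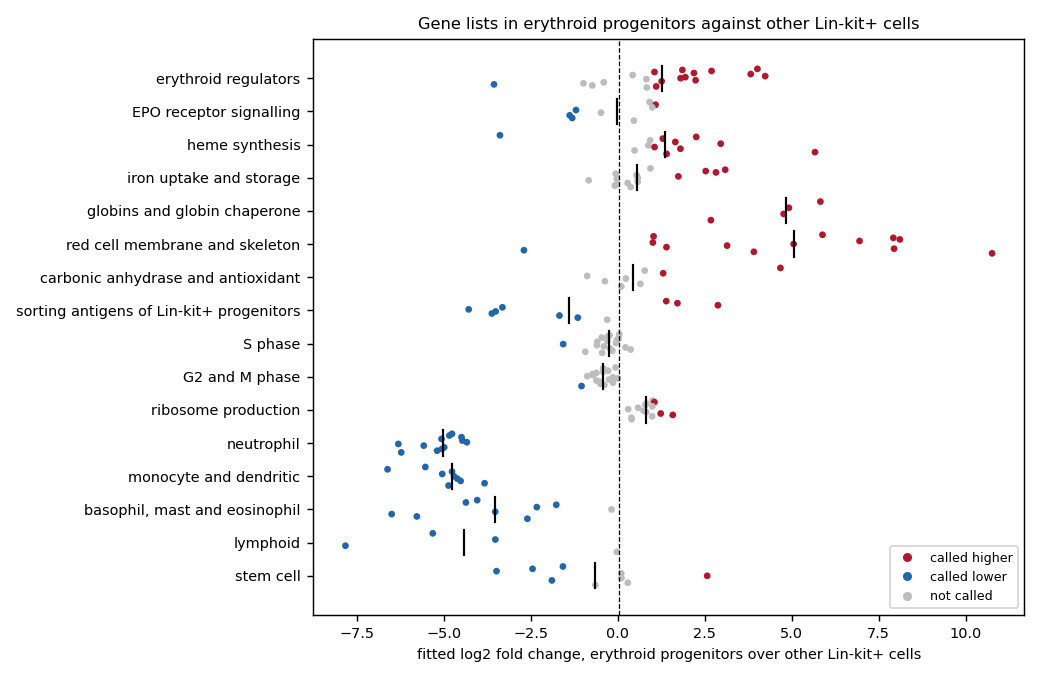
Fitted log2 fold changes of the tested genes of 16 lists, erythroid progenitors over other Lin-kit+ cells. Each point is a gene (red, called higher; blue, called lower; grey, not called), short bars are list medians and the dashed line is the median over all genes (0.03). Points lay to the right for the membrane, globin and heme lists and to the left for the neutrophil, monocyte and basophil lists.

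Downstream of the erythropoietin receptor the picture was mixed. Of 12 genes 8 were tested, 1 was called higher and 3 lower, with a median of -0.02. Stat5a, the transcription factor that the receptor activates through Jak2, was at 40.8, 46.8 and 46.3 CPM against 23.4, 19.4 and 18.2 CPM (1.08 ± 0.14). Stat5b (0.99) and Jak2 (0.91) were higher by less than 2-fold, and were not past the threshold with cells thinned to 2000 UMIs. The phosphatase Ptpn6, which dampens the receptor, was called lower, at 58.5, 62.8 and 69.8 CPM against 145, 143 and 153 CPM (-1.32 ± 0.09), as were the kinase Lyn (-1.21) and the survival gene Bcl2l1 (-1.39), the latter at 5.32, 2.99 and 1.26 CPM against 5.4, 6.56 and 5.04 CPM. Bcl2l1 overlapped between the sets, and without library c it was at -0.84 (edgeR adjusted p = 0.287), and it was not past the threshold with DESeq2 or with 4 markers needed. Lyn lost its call with thinned cells. With library totals 3 genes of the list were called higher. The feedback genes Cish, Socs2 and Socs3 were too scarce to be tested.

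Heme synthesis genes were higher as a group. Of 13 genes 12 were measured and tested, 8 were called higher and 1 lower, with a median of 1.35. Alad, the second enzyme of the pathway, was at 163, 189 and 215 CPM against 37.6, 35.8 and 38.2 CPM (2.25 ± 0.09). Cpox, a late mitochondrial step, was at 42.6, 64.8 and 57.2 CPM against 7.95, 6.39 and 6.11 CPM (2.96 ± 0.18). Tspo2, an erythroid membrane protein of cholesterol and porphyrin transport, stood furthest apart, at 147, 138 and 158 CPM against 1.38, 3.56 and 2.61 CPM (5.67 ± 0.15). Urod (1.65), the glycine carrier Slc25a38 (1.80) and Fech (1.05), the last enzyme, were also called higher, Fech not with thinned cells (0.37). The exception was Alas1, the housekeeping form of the first enzyme, at 17.7, 14.9 and 21.5 CPM in members and 180.0, 188 and 182 CPM in other cells (-3.39 ± 0.13, edgeR adjusted p = 7.17e-22). Every member library lay below every other-cell library for Alas1. The erythroid form Alas2 was not analysed here.

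Of 15 iron genes, 4 were called higher and 0 lower, and the median of 0.53 was closer to that of all genes. Transferrin receptor 2 (Tfr2), which binds the erythropoietin receptor in erythroid cells, was at 69.2, 76.7 and 78.7 CPM against 7.95, 8.09 and 8.19 CPM (3.08 ± 0.15). Steap3, the endosomal ferrireductase, was at 49.7, 46.8 and 48 CPM against 6.89, 6.45 and 5.67 CPM (2.82 ± 0.18). Slc11a2 (DMT1), which carries iron out of the endosome, was at 55, 33.9 and 26.5 CPM against 5.83, 4.36 and 5.52 CPM (2.52 ± 0.20). Tfrc, the main transferrin receptor, differed less, at 17.7, 39.9 and 34.5 CPM against 16.3, 16.3 and 15 CPM (0.93 ± 0.18), the sets did not overlap, and with thinned cells it was not past the threshold (0.60). Mitoferrin 1 (Slc25a37), needed for iron in mitochondria of erythroblasts, was at 10.6, 7.97 and 11.8 CPM against 12.2, 10.1 and 9.29 CPM (-0.06 ± 0.25, adjusted p = 0.86 in edgeR), and the groups overlapped. The ferritin chains went opposite ways, Fth1 with 0.57 and Ftl1 with -0.84, both by less than 2-fold.

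The red cell membrane and skeleton list had a median of 5.05. Of 20 genes 19 were measured and 13 tested, of which 12 were called higher and 1 lower. Rhag was at 19.5, 28.9 and 32.4 CPM against 0.106, 0.113 and 0.089 CPM (7.92 ± 0.34), and its partner Rhd at 67.4, 97.6 and 97.6 CPM against 0.106, 0.339 and 0.326 CPM (8.11 ± 0.22). For both Rh proteins other cells were near 0 in every library. Cldn13, a claudin of mouse erythroid cells, had 208 UMIs in members and 1 in all other cells, a ratio of 3207 with an exact 95% counting interval of 569 to 127268. Exact intervals here and below pool UMIs over libraries and cover counting error only, not the spread between cells or libraries. The skeleton genes Add2 (7.94) and Ank1 (6.95) were called higher, with Ank1 at only 8.87, 13 and 9.68 CPM in members. Kel, the blood group protease, was at 23.1, 13.9 and 23.6 CPM (5.05 ± 0.34), Icam4 at 83.4, 67.7 and 76.1 CPM (3.14 ± 0.16) and Gypc at 49.7, 51.8 and 54.3 CPM (1.02 ± 0.13), the last of which was not past the threshold with thinned cells.

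Late components of the skeleton were scarce. The spectrin gene Sptb was at 5.32, 2.99 and 1.26 CPM, Epb42 at 0, 0.996 and 0.841 CPM and Dmtn at 3.55, 2.99 and 0.421 CPM, all too low to be tested. Other cells were lower still. Sptb had 9 UMIs in members and 2 in other cells, a ratio of 69.4 (14.4 to 660). Epb42 had 3 and 1 UMIs, a ratio of 46.3 (3.71 to 2428), and Dmtn had 6 and 5 UMIs. The anion exchanger Slc4a1 was not analysed here. The glucose transporter Slc2a1 was the 1 member of the list called lower, at 0, 0.996 and 1.26 CPM against 5.4, 5.15 and 6.62 CPM (-2.70 ± 0.52).

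Globin transcripts in libraries b and c came mostly from single cells. The 4 adult globin genes measured (Hba-a1, Hba-a2, Hbb-bs and Hbb-bt) together had 42, 974 and 234 UMIs in members, of which 1 cell held 14, 925 and 169. At least 1 globin UMI was found in 19.2%, 11.2% and 8.54% of members and in 3.65%, 2.83% and 3.09% of other cells. Summed over the list, members were at 74.5, 970 and 98.4 CPM, and without the top cell of each library at 51.2, 49.0 and 27.4 CPM, against 13.2, 13.1 and 14.5 CPM (11.3, 12.1 and 12.5 CPM without the top cell) in other cells. All 4 genes were called higher, but with cells thinned to 2000 UMIs, which left out the shallowest cells and changed the members, the direction of Hbb-bs turned, from 4.76 to -0.58 on the log2 scale (edgeR adjusted p = 0.485).

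Car2, another carbonic anhydrase of red cells and not part of the rule, was the most abundant of the listed genes that were called higher, at 2854, 2530 and 3122 CPM against 92, 99.9 and 108 CPM (4.67 ± 0.08). Prdx2, an antioxidant enzyme abundant in red cells, was at 777, 776 and 749 CPM against 279, 279 and 283 CPM and was called higher, while Gpx1 was lower by less than 2-fold (-0.88). Of the 8 genes of this list 2 were called higher and 0 lower, with a median of 0.43. Among all genes with at least 100 UMIs and the same direction in every library, the 10 with the largest increase were Cldn13, Pklr, Sphk1, Rhd, Add2, Rhag, Slc38a5, Slc25a21, Mt2 and Prss50. Pklr, the pyruvate kinase of red cells and liver, had 102 UMIs in members and 2 in other cells, a ratio of 786 (212 to 6581). Sphk1, a sphingosine kinase, had 399 against 10 UMIs (9.03 ± 0.25). Mt2, a metallothionein that binds zinc and copper, was at 303, 365 and 427 CPM against 1.7, 3.96 and 2.25 CPM (7.03 ± 0.12). Slc38a5, an amino acid transporter, had 7.82 ± 0.25 and Slc25a21, a mitochondrial carrier, 7.75 ± 0.26. Prss50, a serine protease, was at 119, 58.8 and 35.3 CPM in members, so its level differed among the libraries, and at 0.318, 0.283 and 0.445 CPM in other cells.

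The 10 genes with the largest decrease by the same rule were all at 0 UMIs in the 655 members. They were Nrg1, Tgfbi, Pi16, Ppfia4, C5ar1, Tctex1d1, Clec4b2, Pirb, H2-DMb2 and Tmem150b, with 542 to 1278 UMIs in other cells. Taking 3 UMIs over the members as the limit that a count of 0 allows, they were at least 11.7-fold (Tmem150b) to 27.6-fold (Nrg1) lower.

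The genes of surface antigens used to sort marrow progenitors split. Of 10 genes 3 were called higher and 6 lower, with a median of -1.42. Kit, the receptor by which all these cells were sorted, was at 74.5, 90.7 and 63.5 CPM against 25.3, 26.9 and 24.6 CPM (1.39 ± 0.12). Eng (CD105), present on colony-forming erythroid cells, was at 51.4, 40.8 and 40 CPM against 13.7, 12.6 and 10.5 CPM (1.71 ± 0.17). Slamf1 (CD150) was at 19.5, 18.9 and 9.68 CPM against 0.848, 2.49 and 1.57 CPM (2.88 ± 0.31). Relative to all UMIs of each set, Slamf1 was at a similar level in megakaryocyte progenitors (12 UMIs, against 53 in members). In the other direction, Cd34 was at 26.6, 8.97 and 12.6 CPM against 129, 124 and 125 CPM (-3.32 ± 0.15). Fcgr3 (CD16), high on granulocyte-monocyte progenitors, was at 7.09, 8.97 and 13 CPM against 187, 187 and 206 CPM (-4.29 ± 0.14), or at -4.95 without 14 members that carried neutrophil transcripts. Ly6a (Sca-1) had 5 UMIs in members and 876 in other cells (-3.63 ± 0.42), and Cd48 (-1.68), Fcgr2b (-3.52) and Cd9 (-1.15) were also called lower. Fgd5, whose locus drives the reporter, had 6 UMIs in members (0, 1.99 and 1.68 CPM), with 1.17, 1.70 and 1.22 CPM in other cells.

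Genes of the stem cell list split as well. Of 10 genes 9 were tested, 1 was called higher and 4 lower, with a median of -0.65. Mllt3, which stem cells and erythroid and megakaryocyte progenitors use, was at 39, 40.8 and 32 CPM against 5.51, 5.26 and 5.55 CPM (2.57 ± 0.18). Meis1, a homeobox gene of stem and megakaryocyte cells, was at 28.4, 25.9 and 23.6 CPM against 20.3, 21.2 and 21.6 CPM (0.10 ± 0.17, edgeR adjusted p = 0.662), and the direction rested on the rule. With at least 2 markers needed it was 0.63 (edgeR adjusted p = 6.45e-05), and with at least 4 it was -0.87 (edgeR adjusted p = 0.00367). Among those called lower were Hlf (-1.58), Mecom and Procr. Mecom had 3 UMIs in members and 233 in other cells, where it was higher by a ratio of 5.04 (1.70 to 24.6), and Procr had 1 and 164, a ratio of 10.6 (1.88 to 423). Without library c the call of Hlf alone was left. With DESeq2 Procr was not past the threshold.

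Of 18 S phase genes 0 were called higher and 1 lower, and at an adjusted p under 0.05 alone 1 was higher and 10 lower (median -0.27), where over all 10249 genes 2563 were higher and 2688 lower. Rrm2, a subunit of ribonucleotide reductase, was the 1 called, at 65.6, 102 and 111 CPM against 230.5, 252 and 295 CPM (-1.58 ± 0.08). Of 18 G2 and M phase genes 0 were called higher and 1 lower, and 11 were lower at the adjusted p alone (median -0.43). Nusap1, a spindle protein, was the 1 called, at 28.4, 40.8 and 52.2 CPM against 77.7, 78.4 and 89.8 CPM (-1.05 ± 0.12), while Mki67 was at 70.9, 89.7 and 105 CPM against 91.2, 85.7 and 91.4 CPM (-0.07 ± 0.10). With library totals the medians were -0.13 and -0.28, relative to 0.16 for all genes, Nusap1 was under the 2-fold limit and the sign of Mki67 turned (0.08).

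The 14 genes of ribosome production moved the other way. All 14 were higher at an adjusted p under 0.05, 3 of them by at least 2-fold (6 with library totals), with a median of 0.81. Ncl (nucleolin) was at 1265, 1351 and 1612 CPM against 589, 626 and 642 CPM (1.05 ± 0.05). Npm1 (nucleophosmin) was at 2492, 2590 and 2885 CPM against 1324, 1332 and 1430 CPM (0.81 ± 0.07). Myc, which promotes ribosome production, was at 133, 153 and 147 CPM against 63.8, 67.1 and 67.3 CPM (0.99 ± 0.08), and every member library lay above every other-cell library for these 3 genes. Gar1 was at 170.3, 113 and 53.8 CPM against 102, 55.8 and 29 CPM, so its level differed more among libraries than between the cell sets.

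Transcripts of other lineages were low in members but not absent. All 12 neutrophil genes, 9 of 9 tested monocyte and dendritic genes, 8 of 9 basophil, mast and eosinophil genes and 3 of 4 tested lymphoid genes were called lower, with medians of -5.03, -4.77, -3.53 and -4.43 (-2.67 for the lymphoid list with Il7r, at 0 UMIs in members, set at its bound). Summed over the 12 neutrophil genes, members were at 1992, 3209 and 4162 CPM and other cells at 83978, 93311 and 98112 CPM. Most of this came from few cells. In 14 members (1, 3 and 10 cells) these genes took over 1% of the UMIs, and in 8 of these over 5%, while the other members had a median of 0.0677% and other Lin-kit+ cells one of 2.12%. The 14 cells had a median of 10276 UMIs against 4765 in the other members, and Scrublet, which simulates doublets, called 11 of them doublets. It called 14 members in all (2.14%) and 1.11% of other Lin-kit+ cells. Without the 14 cells, Elane, the neutrophil elastase, stood at 0.554% of its level in other cells, in place of 4.0%, and S100a8 at 0.556% in place of 3.43%. Whether the transcripts of the other members come from free RNA was not tested.

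**Figure D4:**
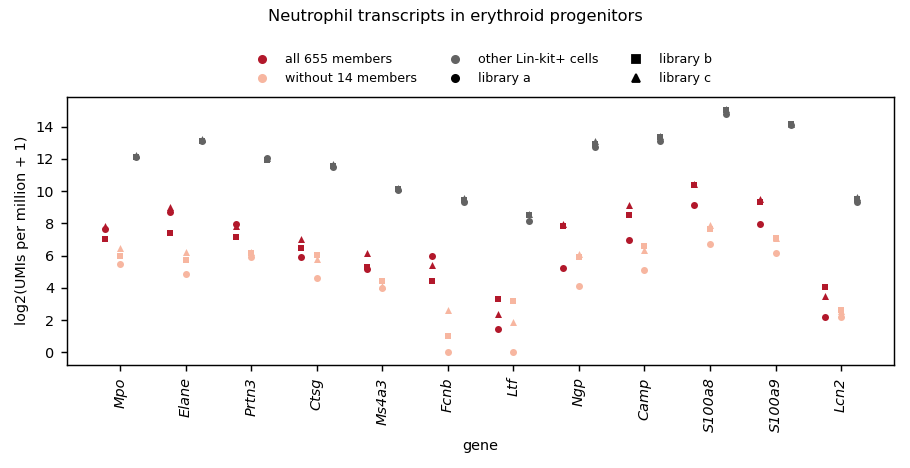
Levels of 12 neutrophil genes as log2(CPM + 1) in all 655 members (red), in members without the 14 cells in which these genes took over 1% of the UMIs (pale) and in other Lin-kit+ cells (grey), each symbol 1 library. Removing the 14 cells brought the members further below other cells.

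Cpa3, a mast cell carboxypeptidase, was at 37.2, 24.9 and 21.9 CPM in members against 124, 96.7 and 121 CPM (-2.33 ± 0.13), 24.6% of the mean level in other cells, and stayed there without the 14 cells (24.6%). Ms4a2, a chain of the IgE receptor, was at 5.32, 13 and 11.8 CPM against 35.2, 30.8 and 36.1 CPM (-1.77 ± 0.20), 29.4% of other cells, though with only 2 markers needed it was not past the threshold (-0.25). In the same list the IgE receptor chain Fcer1a was at 12.4, 6.97 and 3.37 CPM against 61.8, 50.5 and 62.4 CPM, the basophil protease Mcpt8 was at 6.01% of other cells, and the mast cell chymase Cma1 had 0 UMIs in members. Of the 152 UMIs of the basophil protease Prss34 in members 121 lay in 1 cell, and of 68 UMIs of Cd74, the MHC class II chaperone, 61 lay in 1 cell.

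Megakaryocyte progenitors arise from the same precursor, and against them 4840 genes were tested, since their sums were small (140731, 133002 and 522710 UMIs). Members were called higher in 200 genes (4.13%) and lower in 300 (6.2%). These counts rested on the deepest library and on the test, with 73 higher and 154 lower without library c, 457 lower without library a, and 92 and 170 with DESeq2. Of 14 regulators tested, 3 were called higher and 1 lower (median 0.45 against 0.02 for all genes). Gata1 was at 85.3, 128 and 78.4 CPM in megakaryocyte progenitors and within 2-fold of members (0.64 ± 0.17, edgeR adjusted p = 0.0148). Gata2 was at 85.3, 97.7 and 99.5 CPM (-0.26 ± 0.20, adjusted p = 0.417 in edgeR), so members and megakaryocyte progenitors overlapped. Ldb1 (1.41) and Bcl11a (1.48) were called higher in members, and Runx1, which megakaryocytes need, lower (-1.77). Without library c the difference in Gata1 was 0.39 (edgeR adjusted p = 0.408), and Gata1 was also not past the threshold with 2 markers needed, with thinned cells, without the block or with DESeq2, the last of which ended the calls of Ldb1 and Runx1 too. The sign for Gata2 turned with thinned cells (0.72), with 2 markers needed (0.21) and without library c (0.09), and with 4 markers needed it was at -0.64 (edgeR adjusted p = 0.0383).

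Many but not all genes of heme synthesis, iron uptake and the membrane stood higher in members. Relative to all UMIs of each set, Icam4 was at a similar level in both (296 UMIs in members, 55 in megakaryocyte progenitors). Of 8 heme synthesis genes tested 5 were called higher in members and 0 lower (median 1.64). Of 9 iron genes, 5 were called higher and 0 lower (median 1.21). Of 10 membrane genes, 6 were called higher and 0 lower, with a median of 3.19, or 2.57 with the 4 genes at 0 in megakaryocyte progenitors set at their bound. Without library c, 2 heme, 0 iron and 3 membrane genes were called higher. Tspo2 was at 0, 0 and 1.91 CPM in megakaryocyte progenitors, 598 UMIs in members against 1, a ratio of 121 with an exact 95% counting interval of 21.6 to 4777, and Car2 at 604, 601 and 698 CPM (2.20 ± 0.07). Car2 thus lay above other Lin-kit+ cells in megakaryocyte progenitors too, and below every member library. Rhd, Hba-a1, Atp1b2 and Slc25a21 were among the 5 largest increases and had 0 UMIs in megakaryocyte progenitors, so against 3 UMIs they were at least 24.8-fold, 29.1-fold, 20.5-fold and 14.3-fold higher in members. For Hba-a1, 324 of its 432 UMIs lay in 1 cell.

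Among the 5 largest decreases were Plek, a platelet kinase substrate (-6.01 ± 0.24), Sdpr (-5.60 ± 0.32), Serpine2 (-5.46 ± 0.30) and the chromatin protein Hmgn3 (-4.43 ± 0.31). Meis1 was at 192, 158 and 145 CPM in megakaryocyte progenitors (-2.61 ± 0.22), and Vwf, the von Willebrand factor of platelets, at 64, 90.2 and 76.5 CPM (-5.51 ± 0.40). The antigen Cd9 was at 824, 804 and 1008 CPM (-3.25 ± 0.12), and Cd24a was higher in members (2.22 ± 0.23). Of 17 G2 and M phase genes 0 were called higher in members and 1 lower, and 8 were lower at an adjusted p under 0.05 alone (median -0.73), where over all 4840 genes 524 were lower at that adjusted p. Without library c, 1 of 16 was lower at the adjusted p and 0 were called. The megakaryocyte progenitors of library c held 18944 CPM of neutrophil genes, against 2103 and 827 in a and b, and those of library a held 1457 CPM of the eosinophil gene Prg2, and values of these genes are not compared.

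To see how members varied among themselves, they were ranked within each library by the share of UMIs that the 6 markers took. This share ran from 0.0666% to 1.02%, from 0.0763% to 1.15% and from 0.0382% to 1.45% in libraries a, b and c, with medians of 0.429%, 0.450% and 0.490%. Car1 made up most of it, with 15277 UMIs in members, against 2586 for Blvrb and 1528 for Aqp1. Klf1 had 760, Ermap 431 and Epor 245, so the ranking followed Car1 above all. The 26, 71 and 121 cells at each end, called high-marker and low-marker members, are ranges and not types. Genes transcribed along with the 6 markers were bound to differ between these ranges. A call between them gives the size of a difference and is not independent evidence for how members vary. High-marker members were deeper, with a median of 7317.5, 5104 and 6816 UMIs against 4566, 2999 and 4323. Of 3561 genes tested, 54 were called higher in high-marker members (1.52%) and 213 lower (5.98%). Without library a 85 were higher, and with DESeq2 16 were higher and 108 lower. Of the 14 members with neutrophil transcripts 12 were low-marker and 0 high-marker. All 9 tested neutrophil genes were called lower in high-marker members, with a median of -3.72, and the 5 largest decreases were S100a8, Camp, Elane, S100a9 and Fcer1g. Without the 14 cells 3 of 8 tested neutrophil genes were called lower, with a median of -0.71, and Elane (-0.44, adjusted p = 0.25 in edgeR) and S100a8 (-0.39, adjusted p = 0.0556) were no longer past the threshold. Fcer1g, a receptor chain of myeloid and mast cells, was at -4.10, and at -3.58 without the 14 cells.

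High-marker members had more of several red cell genes, a direction that ranking by erythroid markers favours. Of 8 membrane genes tested 3 were called higher, of 6 heme synthesis genes 1 and of 9 iron genes 1, and 0 were called lower. Of 13 erythroid regulators 1 was called higher and 1 lower, with a median of -0.17. The 5 largest increases were in Cldn13, Asns, Sphk1, Mt2 and Rhd. Asns, which makes asparagine, was at 139.6, 112 and 179.8 CPM in high-marker and 14.6, 17.9 and 30.1 CPM in low-marker members (2.56 ± 0.25, edgeR adjusted p = 9.81e-20). Mt2 was at 542, 520.4 and 605 CPM against 43.8, 122 and 166 CPM (2.02 ± 0.14), and Car2 at 3808, 3587 and 4164 CPM against 1502, 1319 and 1489 CPM (1.36 ± 0.07). For each of these 3 genes every high-marker value lay above every low-marker value. Cpox (1.42), Rhag (2.15), Cldn13 (2.88), Sphk1 (2.27) and Rhd (1.79) were called higher, and Alad was higher by less than 2-fold (0.78). With thinned cells Asns was at 1.47 (edgeR adjusted p = 0.0549) and Alad was not past the threshold, and with DESeq2 Rhag and Sphk1 were not. Tspo2 was at 144, 160.5 and 158 CPM against 175, 78.9 and 134 CPM (0.25 ± 0.17, adjusted p = 0.338 in edgeR's test), and the groups overlapped.

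Gata2 and several other genes were lower in high-marker members. Gata2 was at 63.5, 65.7 and 36 CPM in high-marker and 146, 125 and 109 CPM in low-marker members (-1.37 ± 0.22, edgeR adjusted p = 5.57e-08), whereas Gata1 was at 148, 163 and 127 CPM against 65.6, 147 and 140.2 CPM (0.03 ± 0.18, adjusted p = 0.925). Thus Gata2 differed without overlap and Gata1 overlapped. Meis1 was at 8.46, 2.43 and 7.41 CPM against 65.6, 64.5 and 57.3 CPM (-3.30 ± 0.43), and Cd9 at 25.4, 46.2 and 68.8 CPM against 153, 176 and 172 CPM (-1.68 ± 0.20). Cpa3 stood at 4.23, 2.43 and 7.41 CPM against 87.5, 78.9 and 52.8 CPM (-3.54 ± 0.43), and -3.59 without the 14 cells. Summed, the basophil, mast and eosinophil list was at 4.23, 14.6 and 32.8 CPM against 175, 792 and 250 CPM. The 7 megakaryocyte markers of the rule were together at 8.46, 9.73 and 20.1 CPM against 102, 190 and 58.8 CPM. Whether low-marker members include cells of other lineages was not tested. Cd48 (-1.31) and Pim1, a kinase downstream of Stat5 (-1.51), were called lower, Pim1 not with DESeq2. With thinned cells Gata2 was at -0.74 (edgeR adjusted p = 0.262). Cd34 was too scarce to be tested, at 0, 2.43 and 3.17 CPM in high-marker and 102, 25.1 and 28.6 CPM in low-marker members. Kit did not pass, at 67.7, 87.5 and 61.4 CPM against 65.6, 82.4 and 87.4 CPM (-0.32 ± 0.22, adjusted p = 0.332 in edgeR).

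Of 18 S phase genes 1 was called higher and 0 lower, and 6 were higher at an adjusted p under 0.05 alone (median 0.40 against -0.01 for all genes), where over all 3561 genes 330 were higher and 444 lower at that adjusted p. Without library c, 0 of 17 S phase genes were called and 2 were past the adjusted p (median 0.17). Rrm2 was at 42.3, 136 and 170.3 CPM against 87.5, 46.6 and 57.3 CPM (1.19 ± 0.21), and library a went the other way. Without library c it was at 0.71 (edgeR adjusted p = 0.169), and it was not past the threshold with DESeq2 or without the block. Of 16 G2 and M phase genes 0 were called higher and 1 lower, and 3 were lower at the adjusted p alone (median -0.48), but without library c 0 of 9 were past the adjusted p in either direction (median -0.11). Nusap1 was the 1 called, at 4.23, 36.5 and 28.6 CPM against 36.5, 64.5 and 90.4 CPM (-1.54 ± 0.29), though not with DESeq2. Of 13 genes of ribosome production 0 were called and 5 were higher at the adjusted p alone.

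**Figure D5:**
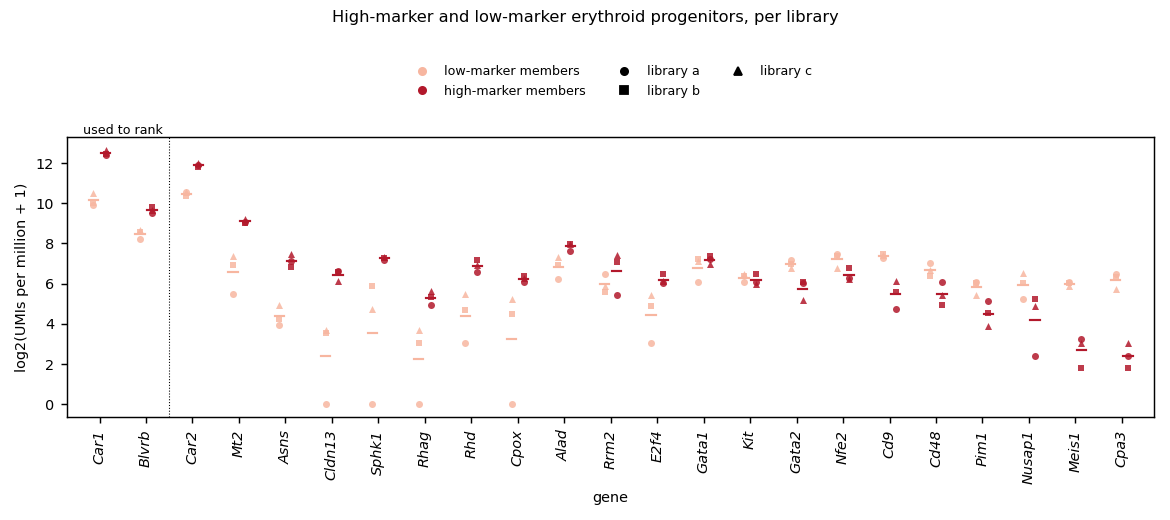
Levels of 23 genes as log2(CPM + 1) in high-marker (red) and low-marker (pale) members, each symbol 1 library and each bar the mean of 3. Car1 and Blvrb were used for the ranking. Asns, Mt2 and Car2 lay higher in high-marker members in every library, Gata2, Cd9, Meis1 and Cpa3 lower, and Gata1 overlapped.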

How the data were processed

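Lin-kit+ and reporter-positive bone marrow cells were captured on the 10x Chromium platform (single cell 3' V2). The authors deposited a table of raw UMI counts per gene and cell, and the submitters' processing notes name Cell Ranger 1.3 and 2.1, Seurat 2.3.4 and build mm10. The values are counts as deposited, with 15287 genes. The members and the gene lists were chosen with earlier results of these data known.

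UMIs were summed per Lin-kit+ library and cell set, and genes passing filterByExpr were tested with edgeR 4.0.16 (R 4.3.3, TMM, quasi-likelihood, library as a block) and Benjamini-Hochberg adjustment. The block stands for the library, whose cells form both sums. The fits were also run on simulated counts with the same dispersion for all genes and no difference between libraries other than depth. That run does not test them under the library differences seen here. Cells were not filtered further. Doublets were called with Scrublet (scanpy 1.11.5) and kept. The text names the 13 genes of the rule, members of 16 lists, and the 10 genes each way (5 in the other 2 comparisons) with the largest change among those past the threshold with at least 100 UMIs and 1 direction in every library. Some genes that this rule names are not reported here. Alternatives were DESeq2 1.42.0, library totals, no filter on low counts, no block, cells thinned to 2000 UMIs, removal of cells below 1000 UMIs or above 10% mitochondrial UMIs, no doublet calls, other marker limits and each library left out. Lists hold genes not analysed here, among them Alas2, Slc4a1 and Ahsp. No test was run on the share of cells.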

Additional observations from a re-analysis of the deposited data

How the results depend on the processing

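Against other Lin-kit+ cells, the counts of genes called higher and lower stayed within 1.5 times of 877 and 1576 under every alternative but thinning to 2000 UMIs (530 and 931). Against megakaryocyte progenitors the counts were 92 and 170 with DESeq2, 46 and 75 with thinned cells and 376 higher with no filter on low counts, in place of 200 and 300. Leaving out a library gave 73 to 272 higher and 154 to 457 lower. Between high-marker and low-marker members they were 16 and 108 with DESeq2, 14 and 40 with thinned cells, 117 and 378 with no filter, and 25 higher with the members split at the median, in place of 54 and 213. Leaving out a library gave 41 to 85 higher. Thinning and the filter change the number of genes tested, and for DESeq2 the cause was not tested. Without the library block, 825 and 1516, 176 and 253, and 33 and 177 genes were called in the 3 comparisons, and Lmo2 against other cells, Gata1 against megakaryocyte progenitors and Rrm2 between the ranges were no longer past the threshold. The share of members was 3.64% with thinned cells, 3.58% with 4 markers needed and 8.08% with 2, and stayed within the spread of the libraries otherwise. Meis1 turned direction with 4 markers needed (-0.87) and Hbb-bs with thinned cells (-0.58), and Gata1, Gata2, Kit, Mki67 and Slc25a37 changed sign under some alternatives in a comparison in which they were not called. Between high- and low-marker members, 2 of 2 tested globin genes were called higher (median 1.86), but without library b 2 of 2 were called lower (-1.89), without doublet calls 0 were called (1.74), and without library c none could be tested. An alternative chosen after seeing the data left out the 14 members with over 1% of neutrophil UMIs, and gave 835 and 1664, 197 and 304, and 51 and 191 calls. The cause of the neutrophil transcripts was not tested. With 3 libraries that may share their mice, and with 26 to 121 cells at each end of the ranking in a library, genes of few UMIs could not be compared.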
